A study of Mus musculus with 6 samples.

Results

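The guanylate-binding proteins are a family of large GTPases that interferon induces in most cell types. The genes described here were the 9 members Gbp2, Gbp3, Gbp4, Gbp5, Gbp6, Gbp7, Gbp8, Gbp9 and Gbp10, matched by gene symbol among the 23127 genes of the deposited table. All 9 were found. Of these, 8 passed a filter on low values (a mean of at least 10 over all libraries) and entered a test of 16095 genes. Gbp10 did not pass and is described by its reads. RNA came from intestinal stem cells of C57BL/6 mice that carry an Lgr5-GFP reporter, sorted for strong GFP, so that the treated and the untreated cells carried the same reporter. The 3 IFNg libraries (named 6, 2 and 10 after the ends of their titles) were made from cells that received interferon gamma (IFNg) at 1 ng/ml and were kept for 1.5 h with EGF, Noggin and R-spondin1. The 3 untreated libraries (5, 1 and 9) are labelled as without treatment, and their titles carry the same 1.5. Age, sex, the number of animals and any pooling of animals are not in the labels. The spread behind each p-value is thus that between libraries, which may be technical.

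IFNg binds the receptor chains Ifngr1 and Ifngr2, which signal through the kinases Jak1 and Jak2. Promoters of its target genes can hold a site called GAS and a further site called ISRE, which the induced factor Irf1 binds. Guanylate-binding proteins made in response assemble on the vacuoles of intracellular parasites and on cytosolic bacteria, disrupt these membranes and help activate inflammasomes. In the mouse the genes lie in a cluster on chromosome 3, whose deletion weakens resistance to Toxoplasma, and in a cluster on chromosome 5.

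Libraries held 28508762 to 40224497 reads in genes. Values below are scaled counts, which are reads divided by a size factor per library, and a single read was worth 0.853 to 1.05 scaled counts. The labelled cell type was checked on its markers: Olfm4 averaged 233547 ± 7644 scaled counts in IFNg libraries and 249440 ± 25867 in untreated ones, and Lgr5 averaged 4167 ± 1488 in IFNg and 5555 ± 2854 in untreated libraries (SD, n = 3 each, as in all means below). None of the 8 genes listed as stem cell markers passed in limma. Of these, 3 had an unadjusted p under 0.05 (9.22% of all tested genes), all with higher means in IFNg libraries. The rest, Lgr5 and Olfm4 among them, had log2 changes below 0. Epcam averaged 45142 ± 27010.1 in IFNg and 12257 ± 6217 in untreated libraries (3.68-fold) and passed in DESeq2 (adjusted p = 0.0220), Smoc2 was 2.20-fold higher and Ascl2 1.92-fold higher. Their part in the results was not tested. Markers of leukocytes, cells that carry guanylate-binding proteins after interferon, were low: 8 of 12 were measured, 4 of these had a mean under 10, and their summed level was 204 to 275.5 in IFNg libraries and 225 to 244 in untreated ones. Itgam, the highest of them, averaged 138 ± 17.8 in IFNg and 136 ± 34.1 in untreated libraries, and Cd3e and Itgax had 0 in some libraries of each group. The 5 measured markers of stroma and endothelium summed to 53.7 to 83.9 in IFNg and 26.3 to 201 in untreated libraries. The 6 Paneth cell markers were far higher and summed to 23277 to 198547 in IFNg libraries and 100872 to 353962 in untreated ones. All 6 had a log2 change below 0 (median -1.10), and none passed in limma. The 4 goblet cell markers summed to 64282 to 128166 in IFNg and 51031 to 199518 in untreated libraries. The 3 enteroendocrine markers summed to 3281 to 12913 in IFNg and 4475 to 15668 in untreated libraries. Tuft cell markers summed to 1729 to 2521 in IFNg and 1446 to 2177 in untreated libraries. Enterocyte markers summed to 3653 to 7812 and 2580 to 6854. The part of these cells in the results was not tested. Libraries IFNg 6 and untreated 5 carry the title tag GFP1 and the other 4 the tag GFP3, and the labels do not say what the tag means.

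Gbp2, Gbp3, Gbp5 and Gbp7 lie on the plus strand of chromosome 3 within mm10 142493978 to 142638008, where Gbp5 spans 142493978 to 142522344, Gbp7 142530342 to 142550149, Gbp3 142560026 to 142573209 and Gbp2 142620602 to 142638008. Gbp8, Gbp9, Gbp4, Gbp10 and Gbp6 lie on the minus strand of chromosome 5, at 105014150 to 105139540, 105077630 to 105139539, 105115767 to 105139586, 105215699 to 105239533 and 105270702 to 105293698. The gene bodies of Gbp8, Gbp9 and Gbp4 overlap, with 60 to 61 exon bases in common.

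RefSeq promoter windows (GRCm38.p6, 250 bases before to 50 after a start) were at hand for 4 of the 9 members, all of the chromosome 3 cluster. Their 250 upstream bases are shown because these 4 genes differ in level and in fold while each window holds an ISRE match. They run from chr3:142620413-142620662 for Gbp2, chr3:142559794-142560043 for Gbp3, chr3:142496684-142496933 for Gbp5 and chr3:142530086-142530335 for Gbp7, plus strand, 5′ to 3′. Capitals mark matches on either strand to the ISRE letters (GAAA, any 2 bases, GAAA, which reads TTTC, any 2 bases, TTTC on the other strand) and to the palindromic GAS letters TTCNNNGAA.
Gbp2: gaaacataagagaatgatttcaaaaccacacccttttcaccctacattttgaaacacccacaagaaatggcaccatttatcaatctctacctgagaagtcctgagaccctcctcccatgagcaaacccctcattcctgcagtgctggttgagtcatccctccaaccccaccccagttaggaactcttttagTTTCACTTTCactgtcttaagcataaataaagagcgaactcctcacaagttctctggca
Gbp3: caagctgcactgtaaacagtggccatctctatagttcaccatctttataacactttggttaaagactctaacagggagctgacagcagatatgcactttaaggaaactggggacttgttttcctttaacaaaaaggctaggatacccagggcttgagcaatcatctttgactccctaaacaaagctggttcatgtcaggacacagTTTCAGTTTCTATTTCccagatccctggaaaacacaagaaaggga
Gbp5: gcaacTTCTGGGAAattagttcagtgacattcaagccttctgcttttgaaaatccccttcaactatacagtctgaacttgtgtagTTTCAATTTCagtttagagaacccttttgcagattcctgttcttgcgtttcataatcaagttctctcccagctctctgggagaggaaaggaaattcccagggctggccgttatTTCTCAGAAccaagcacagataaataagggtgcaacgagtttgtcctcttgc
Gbp7: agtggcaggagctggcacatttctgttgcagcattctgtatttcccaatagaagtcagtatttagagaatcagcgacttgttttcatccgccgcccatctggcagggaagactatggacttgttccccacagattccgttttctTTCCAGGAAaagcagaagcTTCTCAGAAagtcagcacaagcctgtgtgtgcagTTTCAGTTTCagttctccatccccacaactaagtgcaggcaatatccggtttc
Distances count from the RefSeq starts, which differ from the gene positions given above. By those positions the Gbp5 window lies inside the gene, and the windows of Gbp2 and Gbp3 run past the gene start. All ISRE matches lie on the strand opposite to the gene. They begin 59 bases before the start in Gbp2, 45 and 39 bases before it in Gbp3, where the 2 matches overlap, 165 bases before it in Gbp5 and 53 bases before it in Gbp7. GAS matches were present in Gbp5 (245 and 52 bases before the start) and Gbp7 (106 and 87 bases before it). The windows of Gbp2 and Gbp3 held none. A further start of Gbp3 downstream held neither motif. Among all 32851 promoter windows of this length, 3.44% held the ISRE letters, 8.30% the GAS letters and 0.454% both. A match is a description of letters and was not tested as a binding site.

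After IFNg, 5 of the 8 tested members rose, Gbp2, Gbp7, Gbp4, Gbp3 and Gbp6, by 8.60-fold to 223-fold on means of scaled counts. Over all 16095 genes tested, 0.416% passed as higher by the same test (limma, Benjamini-Hochberg adjusted p under 0.05) and 0.0124% as lower. Gbp5 was 17.4-fold higher on means and did not pass, and Gbp8 and Gbp9 did not pass either. With the library pair as a block 5 of 8 passed as higher (0.46% of all genes), in edgeR 5 of 8 (0.373%) and in DESeq2 6 of 8 (3.22% of 14212 genes). In 6 of 8 every IFNg library stood above every untreated one (8.13% of all genes), and in 0 of 8 below (5.06%). The summed scaled counts of all 9 members made up 0.131%, 0.140% and 0.117% of scaled counts in genes in IFNg 6, 2 and 10, against 0.00229%, 0.00204% and 0.00165% in untreated 5, 1 and 9. In such bulk libraries more cells with a transcript and more transcript per cell cannot be told apart.

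**Figure D1:**
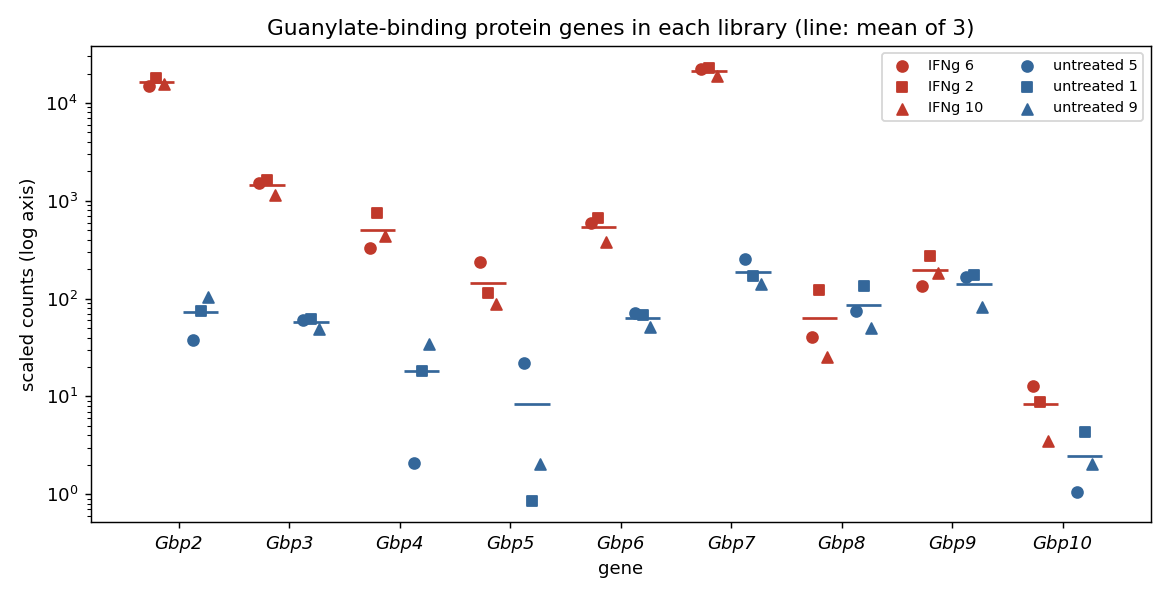
Scaled counts (log axis) of the 9 members in each of the 3 IFNg libraries (red, left) and 3 untreated libraries (blue, right), with lines at the group means. Gbp2 and Gbp7 stand at 14970.1 to 23029 in IFNg libraries, and the groups of Gbp8, Gbp9 and Gbp10 overlap.

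Gbp2 and Gbp7 carried most of the family's signal after IFNg. Gbp2, a prenylated member that coats Toxoplasma vacuoles in mouse cells, had 14970.1, 18066 and 15616 scaled counts in IFNg 6, 2 and 10, against 37.9, 74.8 and 105 in untreated 5, 1 and 9. The groups lay far apart, and untreated 9 was the highest of its group. The means were 16217 ± 1633 in IFNg and 72.6 ± 33.6 in untreated libraries, a 223-fold increase (log2 7.90 ± 0.375 SE, limma adjusted p = 2.64e-05). Gbp2 ranked 3 of 16095 by log2 change.

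Gbp7, which recruits components of the NADPH oxidase in mouse macrophages, had 22411, 23029 and 18772 scaled counts in IFNg 6, 2 and 10, against 254, 171 and 142 in untreated 5, 1 and 9. All IFNg libraries stood above all untreated ones, and the IFNg values lay close together. Means were 21404 ± 2300 in IFNg and 189 ± 58.0 in untreated libraries, a 113-fold increase (log2 6.85 ± 0.289 SE, limma adjusted p = 1.82e-05). It ranked 9 of 16095 by log2 change and 2 by p-value. Of the annotated exon bases of Gbp7, 637 (11.35%) also belong to the pseudogene Gm43802, a symbol absent from the deposited table. Whether reads there were set aside or counted is unknown. Together Gbp2 and Gbp7 made up 92.0% to 93.8% of the members' summed scaled counts in IFNg libraries, and 34.8% to 47.6% in untreated libraries.

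Gbp3 rose evenly across the libraries. It had 1527, 1638 and 1156 scaled counts in IFNg 6, 2 and 10, against 61.1, 61.9 and 49.4 in untreated 5, 1 and 9. The groups lay far apart, and each was narrow. Means were 1440.4 ± 252 in IFNg and 57.5 ± 6.99 in untreated libraries, a 25.1-fold increase (log2 4.61 ± 0.302 SE, limma adjusted p = 1.25e-04). The log2 differences within the pairs 6 and 5, 2 and 1, and 10 and 9 were 4.62, 4.70 and 4.52, the narrowest span of any member.

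Gbp5, a prenylated member that takes part in inflammasome activation in mouse macrophages, was the lowest member of the chromosome 3 cluster. It had 235, 114 and 87.7 scaled counts in IFNg 6, 2 and 10, against 22.1, 0.860 and 2.06 in untreated 5, 1 and 9, which are 21, 1 and 2 reads. The groups did not overlap, and untreated 5 stood well above the other untreated libraries. Means were 145 ± 78.3 in IFNg and 8.35 ± 11.9 in untreated libraries, so Gbp5 passed the filter through its IFNg libraries. The log2 change of 4.72 ± 0.921 SE missed the threshold in limma (adjusted p = 0.107). It passed with the library pair as a block (0.0386), with the title tag as a term (0.00985), in DESeq2 (0.00104) and without untreated 5 (0.00491), where the ratio of means was 99.5. In edgeR it did not pass (0.236), and adjusted p over 14 alternatives ran from 0.00104 to 0.383.

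The chromosome 5 members split. Gbp4 had 333, 742 and 433 scaled counts in IFNg 6, 2 and 10, against 2.11, 18.1 and 34.0 in untreated 5, 1 and 9. No untreated library reached the IFNg range, and untreated 5 held only 2 reads. Means were 503 ± 214 in IFNg and 18.1 ± 15.9 in untreated libraries, a 27.8-fold increase (log2 5.22 ± 0.813 SE, limma adjusted p = 0.0347). This call was lost with the pair as a block (0.0539), without IFNg 6 (0.0623), IFNg 2 (0.172) or IFNg 10 (0.130) and without untreated 1 (0.116), and adjusted p over 14 alternatives ran from 1.29e-09 to 0.172. Without untreated 9 the ratio of means was 49.8.

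Gbp6, which acts against Listeria and mycobacteria in mouse macrophages, had 591, 662 and 381 scaled counts in IFNg 6, 2 and 10, against 70.6, 68.0 and 51.5 in untreated 5, 1 and 9. The groups were far apart, and the libraries of the pair 10 and 9 were the lowest of each. Means were 545 ± 146 in IFNg and 63.3 ± 10.3 in untreated libraries, an 8.60-fold increase (log2 3.06 ± 0.348 SE, limma adjusted p = 0.00456). Its near twin Gbp10, named with Gbp6 in the same defence, had 15, 9 and 4 reads in IFNg 6, 2 and 10, against 1, 5 and 2 reads in untreated 5, 1 and 9. IFNg 10 was below untreated 1, so the groups overlapped. Over the 3 libraries of a group that is 28 reads and 8 reads, a ratio of rates of 3.22 with an exact 95% interval of 1.43 to 8.18 that covers counting error only. Without the filter its log2 change was 1.39, which did not pass (limma adjusted p = 0.869).

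Gbp9 and Gbp8 showed no such rise. Gbp9, found on Toxoplasma vacuoles in mouse cells, had 135, 276 and 184 scaled counts in IFNg 6, 2 and 10, against 165, 174 and 82.4 in untreated 5, 1 and 9. The groups overlapped and averaged 198 ± 71.5 in IFNg and 141 ± 50.5 in untreated libraries (log2 0.51 ± 0.427 SE, limma adjusted p = 0.879). Gbp8 had 40.1, 122 and 25.4 scaled counts in IFNg 6, 2 and 10, against 74.8, 133 and 50.5 in untreated 5, 1 and 9. In both groups the library of the pair 2 and 1 was the highest. Gbp8 averaged 62.7 ± 52.3 in IFNg and 86.2 ± 42.6 in untreated libraries and was the sole tested member with a log2 change below 0 (-0.66 ± 0.627 SE, limma adjusted p = 0.886). That value rests on single libraries: it was -1.29 without IFNg 2, -0.18 without IFNg 10 and -0.29 without untreated 1, and the ratio of means, 0.727 over all libraries, was 0.380 without IFNg 2 and 1.00 without untreated 1. On simulated data the test found 2% of 50 genes with a 2-fold change and 52% of 50 with a 4-fold change. Those genes were drawn over all levels, and the levels and changes of Gbp8 and Gbp9 were not simulated in particular. A change in either may thus have been missed.

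**Figure D2:**
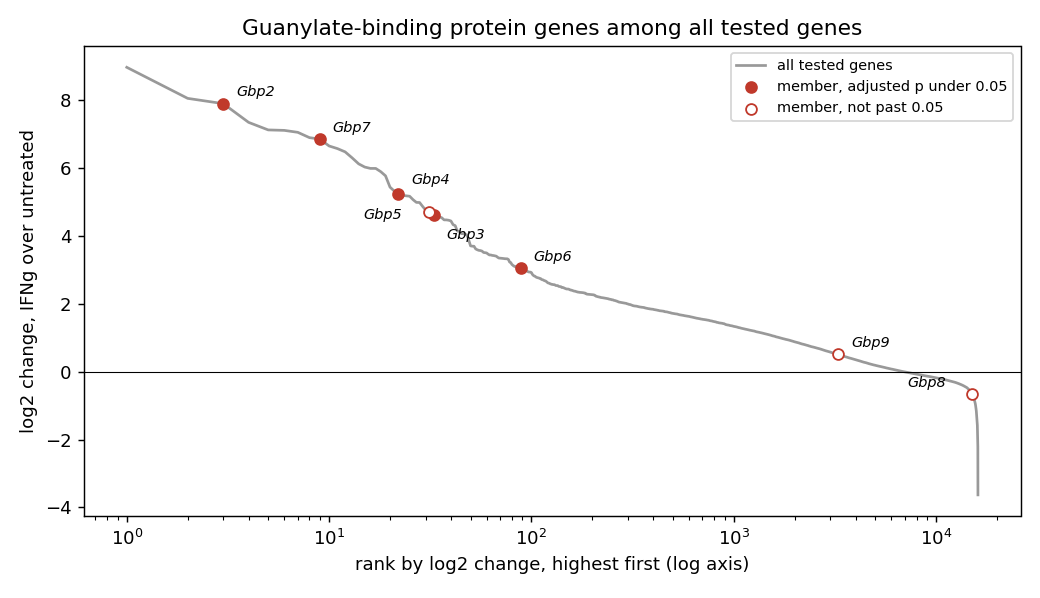
Log2 change, IFNg over untreated, of all 16095 tested genes by rank (log axis), with the 8 tested members marked. The ranks were 3 for Gbp2, 9 for Gbp7, 22 for Gbp4, 31 for Gbp5, 33 for Gbp3 and 89 for Gbp6, against 3282 for Gbp9 and 15052 for Gbp8.

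Members differed in how evenly they moved across libraries. Among the 8 tested members 7 were highest, within the IFNg group, in IFNg 2, and Gbp5 was highest in IFNg 6. The log2 differences within pairs spanned 3.63 to 6.75 for Gbp4 and 3.35 to 5.95 for Gbp5. Gbp4 differed most in the GFP1 pair and Gbp5 least, with log2 changes of 6.75 and 4.46 for Gbp4 and 3.35 and 5.40 for Gbp5 in the GFP1 pair and the GFP3 pairs. Neither interaction of treatment and tag passed (limma adjusted p = 0.258 for Gbp4 and 0.408 for Gbp5, with 1 GFP1 library per group). None of the 16095 genes passed that interaction in limma, and 2117 had an unadjusted p under 0.05.

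**Figure D3:**
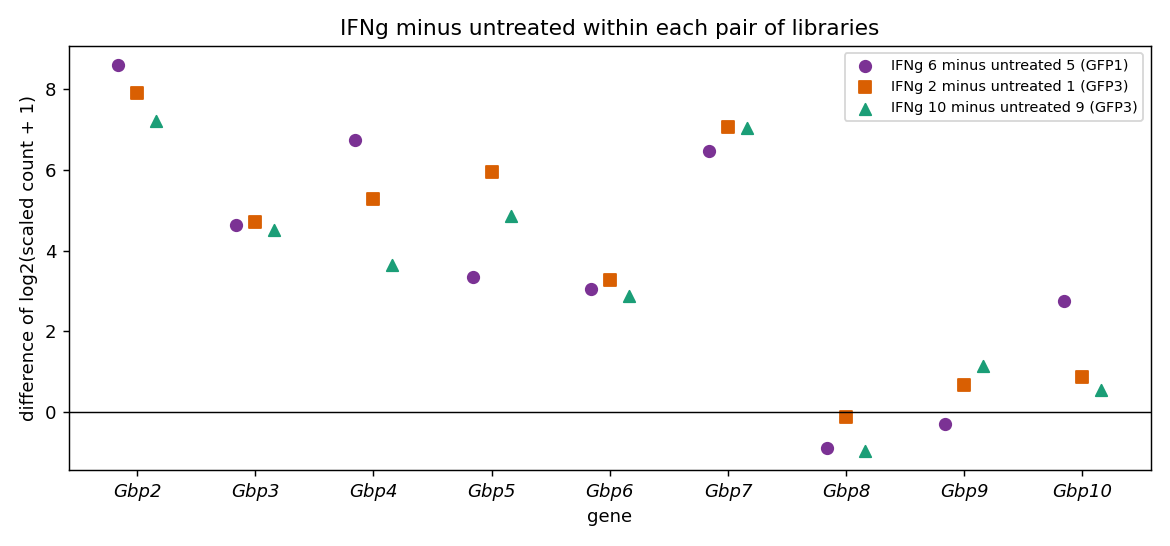
Difference of log2(scaled count + 1), IFNg minus untreated, in each pair of libraries for the 9 members. All 3 differences are above 0 for Gbp2 to Gbp7 and Gbp10, all 3 are below 0 for Gbp8, and Gbp9 has -0.29 in the GFP1 pair and 0.66 and 1.15 in the GFP3 pairs.

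Levels were compared between members per kb of coding sequence. In IFNg libraries Gbp7 led at 11183 ± 1202 scaled counts per kb and Gbp2 followed at 9178 ± 924, and their ranges over libraries overlapped. Gbp3 came next at 774 ± 136, apart from both neighbours, followed by Gbp6 at 297 ± 79.9 and Gbp4 at 265 ± 113, which overlapped, and then by Gbp9 at 107 ± 38.5, Gbp5 at 82.1 ± 44.3 and Gbp8 at 39.8 ± 33.2, each overlapping the next. Gbp10 was last at 4.54 ± 2.54. Of the stretches of 50 bases, 70.7% in Gbp6 and 84.1% in Gbp10 occur in other genes. Levels per kb of these genes, and their places in either group's order, are thus uncertain. In untreated libraries Gbp7 led at 98.8 ± 30.3, Gbp9 had 75.7 ± 27.2 and Gbp8 54.7 ± 27.0, and Gbp2 was the fourth at 41.1 ± 19.0. Adjacent members in the untreated order overlapped except Gbp3 at 30.9 ± 3.76 and Gbp4 at 9.54 ± 8.42. Per kb of all annotated exons, a length chosen after the data were seen, Gbp2 led in IFNg libraries at 6446 ± 649 and Gbp7 followed at 3813 ± 410 without overlap, so the order of these genes depends on the length used.

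Against the 16037 tested genes with a known exon length, Gbp2 stood at percentile 98.2 to 98.8 of scaled counts per exon kb in IFNg libraries and at 20.6 to 35.9 in untreated ones. Gbp7 stood at 97.1 to 97.6 in IFNg and 28.0 to 36.1 in untreated libraries, and Gbp3 at 71.9 to 78.2 in IFNg and 20.8 to 24.8 in untreated ones. Gbp6 reached 39.3 to 50.1 in IFNg against 13.8 to 18.8 in untreated libraries, percentiles that its shared sequence makes uncertain. Gbp5 reached 17.0 to 32.6 in IFNg against 0.243 to 7.17 in untreated libraries, so Gbp6 and Gbp5 stayed in the lower part of the range or at its middle after IFNg. For Gbp8 the percentiles were 10.2 to 31.9 in IFNg and 20.3 to 35.0 in untreated libraries, which overlap.

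Sequence shared between members limits what was counted, since reads with more than a single alignment were kept out of genes. Coding sequences of the 5 chromosome 5 members were 89.7% to 98.4% identical over 10 pairs, with a median of 90.8%, and those of the 4 chromosome 3 members 64.55% to 78.55% over 6 pairs. Between the clusters identity was 63.0% to 75.9% over 20 pairs. Gbp6 and Gbp10 were the closest pair, with 1803 of 1833 aligned bases identical. Of all stretches of 50 bases in the transcripts of Gbp10, 84.1% occur exactly in another annotated gene, and 70.7% of those of Gbp6 do. Much of this is Gm43302, an annotated gene that shares 1726 exon bases with Gbp6 and 1792 with Gbp10. The symbol Gm43302 is absent from the deposited table, how such reads were counted is unknown, and values of Gbp6 and Gbp10 are uncertain. The same share was 18.1% for Gbp8, 12.7% for Gbp7, 8.05% for Gbp9 and 7.78% for Gbp4, and for Gbp3, Gbp2 and Gbp5 it was 3.75%, 2.03% and 1.44%. Reads with several alignments took 19.4% to 25.0% of all reads in IFNg libraries and 18.5% to 24.5% in untreated ones.

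**Figure D4:**
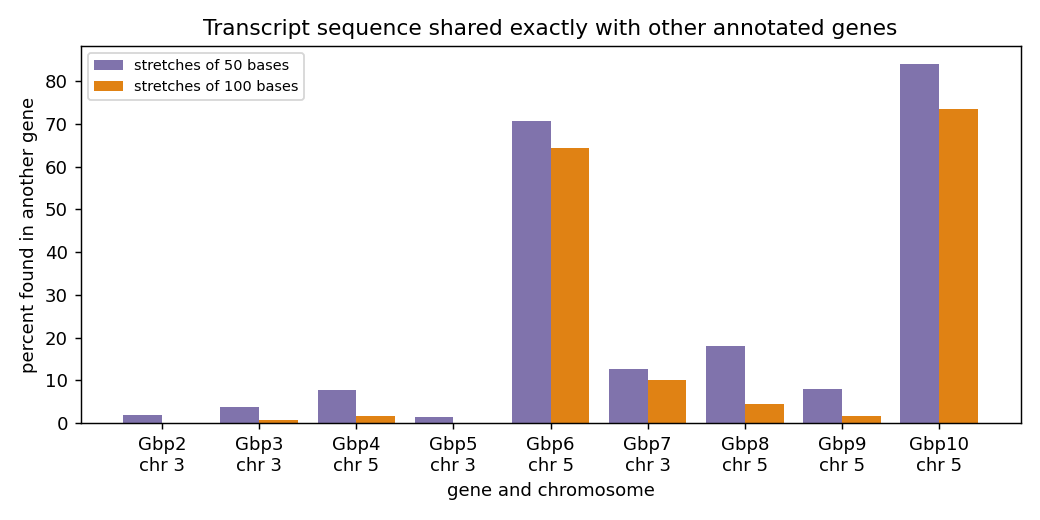
Percent of all distinct stretches of 50 and of 100 bases in each member's annotated transcripts that occur exactly in a transcript of another gene, on either strand. Gbp10 (84.1% and 73.5%) and Gbp6 (70.7% and 64.5%) stand above the other 7 members, which lie at 1.44% to 18.1% for 50 bases.

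Genes around the clusters mostly did not pass. The 12 nearest tested genes, 3 on each side of a cluster, were Rap1gds1, Unc5c, Pdlim5, Ccbl2, Gtf2b and Pkn2 on chromosome 3, and D930016D06Rik, Gm8258, Zfp951, Gm42749, Lrrc8b and Lrrc8c on chromosome 5. None passed in limma, with the block or in edgeR, 2 had an unadjusted p under 0.05 (9.22% of all tested genes) and 1 of the 9 with an adjusted p in DESeq2, Rap1gds1, passed there. The log2 changes of the 12 ran from -0.54 to 1.26. Nearest does not mean adjacent here: Rap1gds1 lies 3418777 bases before the chromosome 3 cluster and Unc5c 659054 bases before it. On chromosome 3, Pdlim5 lies 98282 bases before the cluster and averaged 5686 ± 1741 in IFNg and 7554 ± 3019 in untreated libraries. Gtf2b, a general transcription factor gene 127037 bases after it, averaged 1724 ± 599 in IFNg and 1403 ± 502 in untreated libraries. The chromosome 5 cluster was taken to end with Gbp11 at 105346472, a family gene outside the 9 members. Lrrc8b, which encodes a subunit of a volume-regulated anion channel, starts 69303 bases after that end. It averaged 1113 ± 590 in IFNg and 554 ± 147 in untreated libraries (limma adjusted p = 0.552).

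The 5 genes outside the family whose log2 values lay closest to the mean of the 8 tested members over the 6 libraries were Igtp (Pearson r = 0.999), Batf2 (0.997), Gm12250 (0.996), Irf1 (0.996) and Irf9 (0.996). The 6 libraries fall into the 2 treatment groups, so r mainly ranks genes by how evenly they separate the groups, and it carries no test. For the members r ran from 0.999 for Gbp3 to 0.538 for Gbp9 and -0.297 for Gbp8. Each member is itself part of the mean, so these values are not comparable with those of genes outside the family.

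A list of 15 genes leads from the IFNg receptor to transcription of these genes. Of them, 7 rose in limma, 6 with the block, 6 in edgeR and 9 in DESeq2. Over all tested genes the shares called higher were 0.416%, 0.46%, 0.373% and 3.22% in that order. The median log2 change of the 15 was 1.31, against -0.08 over all tested genes. The 4 largest were Socs1, an inhibitor of Jak kinases (log2 7.34), the transcription factors Batf2 (5.99) and Irf1 (5.07), and Socs3, a further cytokine signalling inhibitor (3.70). Of the immunity-related GTPases, which work with guanylate-binding proteins at vacuoles, 8 of 9 tested rose in limma (0.416% of all genes). The median log2 change of the 9 was 6.48. The largest were Iigp1 (log2 8.05), Tgtp1 (7.05), Irgm2 (6.89) and Irgm1 (6.65). The smallest change among the 8 was that of Ifi47 (4.07), and Irgq, which did not pass, lay below it. Gbp2 (7.90), Gbp7 (6.85), Gbp4 (5.22), Gbp5 (4.72) and Gbp3 (4.61) lie within the span of those 8, and Gbp6 (3.06), Gbp9 and Gbp8 below it.

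Of the genes whose products act with these proteins at membranes, few passed the test. Of 11 genes of ATG8 conjugation, which directs these GTPases to vacuoles, 0 passed in limma, edgeR or DESeq2 and 3 had an unadjusted limma p under 0.05, as had 9.22% of all tested genes. Map1lc3b averaged 12854 ± 1578 in IFNg and 14779 ± 1283 in untreated libraries, and Gabarap 5652 ± 1910 in IFNg and 5663 ± 1971 in untreated libraries. Of 6 genes for prenylation and its processing steps, which attach prenylated members to membranes, 0 passed with any of these 3 tools and 2 had an unadjusted p under 0.05 (9.22% of all genes). Zmpste24 averaged 2326 ± 182 in IFNg and 2833 ± 785 in untreated libraries, and Fnta 3089 ± 324 in IFNg and 1622 ± 1288 in untreated libraries.

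Of 12 tested inflammasome and pyroptosis genes, 0 passed in limma, edgeR or DESeq2. An unadjusted p under 0.05 was seen for 0 of the 12, against 9.22% of all genes. Pycard, the inflammasome adaptor, averaged 7083 ± 3876 in IFNg and 7157 ± 3059 in untreated libraries, and Nlrc4, a sensor for bacterial proteins, 5115 ± 335 in IFNg and 6127 ± 1376 in untreated libraries. Among 10 genes that tag damaged vacuoles, 1 rose in limma (0.416% of all genes) and 2 in DESeq2 (3.22%). The gene called in limma was the ubiquitin ligase Trim21, at 1491 ± 246 in IFNg and 304 ± 102 in untreated libraries (4.90-fold, limma adjusted p = 0.0168).

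Of 11 tested genes of the wider dynamin superfamily, to which guanylate-binding proteins belong, 0 passed in limma or edgeR, 0 of the 8 with an adjusted p in DESeq2 passed there, and 2 of 11 had an unadjusted p under 0.05 (9.22% of all genes). Their median log2 change was -0.24, and Atl2, a membrane-fusing GTPase of the endoplasmic reticulum, averaged 6132 ± 736 in IFNg and 8004 ± 2781 in untreated libraries, while Dnm2 averaged 5349 ± 913 in IFNg and 7150 ± 2759 in untreated libraries. Of 8 tested NADPH oxidase genes 0 passed in limma, edgeR or DESeq2. Here too 0 had an unadjusted p under 0.05, against 9.22% of all genes. Cyba, a membrane subunit, averaged 4332 ± 894 in IFNg and 5000.4 ± 397 in untreated libraries, and Noxa1, an activator, 2730 ± 286 in IFNg and 2859 ± 175 in untreated libraries.

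**Figure D5:**
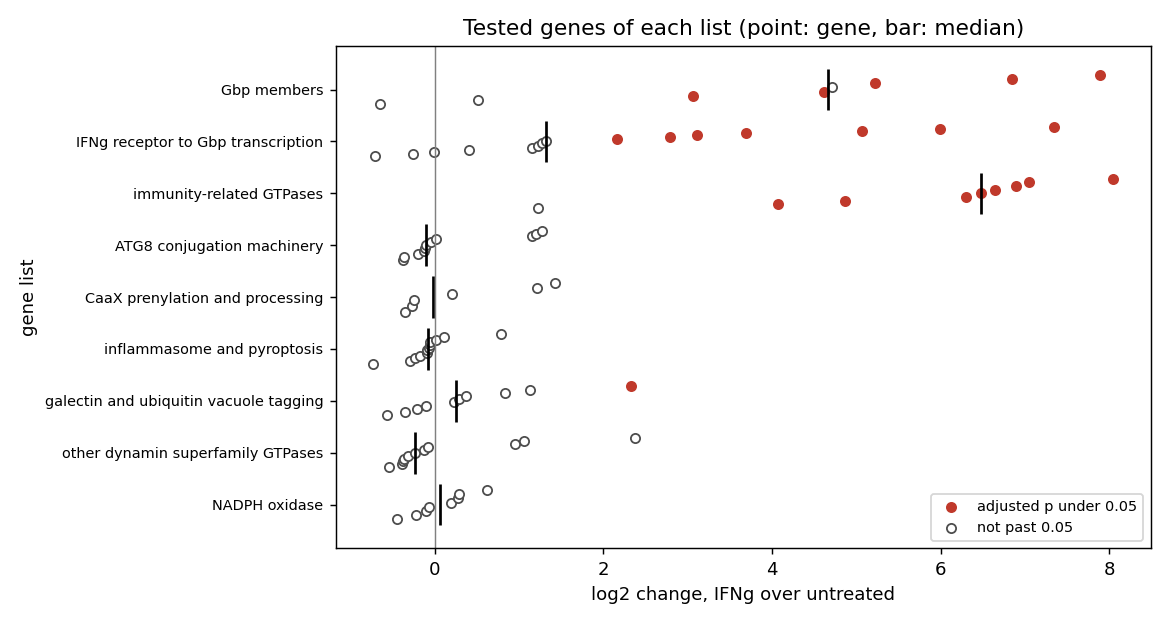
Log2 change, IFNg over untreated, of each tested gene of the family and of 8 further lists (filled: limma adjusted p under 0.05; bar: median of the list). The medians are 4.67 for the family, 6.48 for the immunity-related GTPases and 1.31 for the receptor pathway, and the other lists lie between -0.24 and 0.26.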

How the data were processed

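Bulk RNA-seq was measured in 3 IFNg and 3 untreated libraries, each begun with 2 ng of total RNA, amplified over 12 cycles with a SMART-Seq v4 kit and, from 10 ng of cDNA, over 8 more with a KAPA kit, per the labels' protocols. The authors deposited a signal per gene, counts scaled by DESeq, per the name of the file. Per the submitters' processing notes, which give no roles, the tools were DESeq 1.22.1, HTSeq 0.5.3, STAR 2.5.0a and cutadapt 1.6, with build mm10. Annotation, strand setting and read length were not given in the sources. The 4 rows of no gene (18.5% to 25.0% several alignments, 9.67% to 14.2% outside genes, 8.83% to 15.4% unaligned, 0.948% to 1.20% ambiguous) were left out.

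Dividing by the lowest step of a library gave whole reads, within 0.01, for 100% of 138762 values. Two-sided tests used limma 3.58.1 in R 4.3.3, with trend and robust settings, on log2 of the scaled count plus 1. The 16095 genes whose mean reached 10 were kept. The added 1 draws low values together, yet the log2 changes of low genes were not always smaller on this scale than in the count tests. Gbp4 had 5.22 in limma, 4.73 in edgeR and 4.83 in DESeq2. For Gbp5 the values were 4.72, 4.10 and 4.15 in that order. Folds are ratios of mean scaled counts. EdgeR 4.0.16 (60 higher, 2 lower genes) and DESeq2 1.42.0 (457 and 8) on recovered reads were alternatives, beside those in the closing section. In limma 67 genes were higher and 2 lower. On simulated data of 16095 genes the test recovered 2%, 52%, 78% and 84% of 50 genes each changed 2-, 4-, 8- and 16-fold and called 6 unchanged genes.

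Neighbouring end numbers were taken to pair libraries from the data, not the labels: deviations from group means correlated at 0.302 (6 and 5), 0.404 (2 and 1) and 0.252 (10 and 9). Replicates of a group may be technical. Positions, exon lengths, coding lengths and transcripts came from GENCODE M21 (GRCm38), where all 9 member IDs matched with their version and 23006 of 23127 IDs matched without it. The coding length of the longest protein-coding transcript replaced a length from proteins, which were not used here. The members, lists and tests were chosen with earlier results of these data known. The text names all members, the 5 nearest patterns, the nearest 3 tested genes per side of a cluster and per list up to 4 called genes or 2 of the highest mean.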

Additional observations from a re-analysis of the deposited data

Results flagged for a closer look

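Gbp9 moved in opposite directions in libraries of different title tags. Its log2 difference was -0.29 in the GFP1 pair and 0.66 and 1.15 in the GFP3 pairs, so that the change in the GFP3 pairs exceeded that in the GFP1 pair by 1.20. The interaction of treatment and tag did not pass (limma adjusted p = 0.609, 1 GFP1 library per group).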

How the results depend on the processing

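Over 14 alternatives to the main test the number of members called as higher ran from 4 to 6. None of 112 log2 changes of the 8 tested members reversed, and 101 kept both direction and side of the threshold. The block, the tag as a term and the lack of a filter leave each log2 change as in the main test. No reversal was possible in those alternatives, where only the p-value can move. The other 11 belonged to Gbp4 (5 lost calls) and Gbp5 (6 gained calls, among them 0.0388 with a pseudocount of 8 and 0.00299 in the GFP3 libraries alone). The count of higher genes over the whole table, 67 in the main test, was 457 in DESeq2, 108 with the title tag as a term, 1331 in the GFP3 libraries alone and 74 with the pair as a block. The count of lower genes, 2 in the main test, was 8 in DESeq2, 12 in the GFP3 libraries alone and 1 with the pair as a block. Leaving out a library gave 40 (without IFNg 2) to 366 (without untreated 5) higher and 1 to 3 lower genes. The cause was not tested. Apart from Gbp4 and Gbp5, named in the report, the block changed no member's call. The log2 ratio of Gbp2 to Gbp7 per kb in IFNg libraries was -0.29 with coding length and 0.76 with all annotated exons, a length chosen after seeing the data. Low read counts limit Gbp10 and the untreated values of Gbp5 and Gbp4, where a library held as few as 1 or 2 reads. Why these counts were low was not tested.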

Other observations

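A pair of further family genes outside the 9 members had few reads. Gbp2b, the chromosome 3 gene next to Gbp2, had 0, 13 and 6 reads in IFNg 6, 2 and 10, against 0, 2 and 2 reads in untreated 5, 1 and 9. The ratio of rates was 4.37, with an exact 95% interval of 1.45 to 17.7 that covers counting error only. Its RefSeq promoter window holds an ISRE match 137 bases before the start and no GAS match, and its coding sequence is 82.5% identical to that of Gbp2. Gbp11, annotated as a polymorphic pseudogene on chromosome 5, had 0, 9 and 6 reads in IFNg 6, 2 and 10, against 4, 0 and 1 reads in untreated 5, 1 and 9, giving 2.76 for the ratio (0.954 to 9.71). In each library a count of 0 still allows 3 reads, worth 2.56 to 3.16 scaled counts.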
